A study of Mus musculus with 6 samples.

Results

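The oncofetal genes Hmga1, Hmga2, Lin28a, Lin28b, Igf2bp1, Igf2bp2, Igf2bp3, Igf2 and H19 were followed through mouse pancreatic tumours and normal pancreas. They were chosen by symbol: 9 names were looked up in the authors' comparison tables, 8 of them were found there out of the 27179 genes counted, and Lin28a was in neither table, so its reads were taken by its gene ID. The authors' tables keep genes with at least 10 counts over 4 libraries, and the names were listed with earlier results of these libraries in view, so the levels and fold changes below describe these genes and their p-values are no independent support for the choice. RNA sequencing covered 6 libraries in 3 groups of n = 2. H7 tumours grew from PANC02-H7 cells and UNKC tumours from UN-KC-6141 cells, each put surgically into the pancreas of C57BL/6 mice and taken 20 days later, and the normal group was whole pancreas of C57BL/6 mice. The mice were not treated, and their sex, their age and the mouse behind each replicate are not stated, so the p-values measure the spread between these samples. As background, PANC02-H7 is an aggressive subline of a chemically induced pancreatic carcinoma line, and UN-KC-6141 was derived from a genetically engineered mouse with pancreatic neoplasia. A tumour piece holds injected cells together with cells of the host, whose reads were counted together. In such bulk samples, fewer cells of a type and less RNA per cell cannot be told apart.

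These genes are active in the embryo, and most of them are largely silent in adult organs, with Igf2bp2 as an exception. HMGA proteins are small architectural proteins that bind AT-rich DNA, LIN28 proteins bind the precursors of the let-7 microRNAs and block their maturation, and IGF2BP proteins bind, stabilise and localise mRNAs, among them that of Igf2, a growth factor of the fetus. Mature let-7 represses mRNAs of HMGA2, LIN28 and IGF2BP genes through sites in their 3′ untranslated regions. H19, a noncoding RNA and the host of miR-675, lies beside Igf2 in an imprinted region in which the paternal copy gives Igf2 and the maternal copy gives H19.

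The let-7 sites are shown because most of these genes hold a match to 1 small RNA family. Of 11 let-7 and miR-98 mature sequences read from RefSeq (GRCm38.p6), 10 share the seed GAGGUAG (bases 2 to 8), in capitals here in let-7a.
mmu-let-7a-5p: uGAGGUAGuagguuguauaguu

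The reverse complement of that seed, CTACCTC, was searched on the sense strand of the longest annotated 3′ untranslated region of each gene (GENCODE M21, mm10). Below, each stretch of 30 bases ends 1 base after the match, which is in capitals.
Hmga2 site 1, chr10:120364224-120364253, minus strand: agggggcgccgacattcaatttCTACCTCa
Hmga2 site 2, chr10:120362987-120363016, minus strand: caataatccccactcctcaataCTACCTCt
Hmga2 site 3, chr10:120362549-120362578, minus strand: ggacttcctgatttgcaaggaaCTACCTCc
Hmga2 site 4, chr10:120361691-120361720, minus strand: gttgtacaatcaaaacacactaCTACCTCt
Igf2bp1 site 1, chr11:95961778-95961807, minus strand: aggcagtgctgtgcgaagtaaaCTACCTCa
Igf2bp2, chr16:22059473-22059502, minus strand: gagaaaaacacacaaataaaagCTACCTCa
Igf2bp3, chr6:49086787-49086816, minus strand: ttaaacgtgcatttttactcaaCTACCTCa

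Hmga2, Lin28b and Igf2bp1 each held 4 matches, Lin28a held 2, Hmga1, Igf2bp2 and Igf2bp3 held 1 each, and Igf2 held 0. Of 20996 genes with an annotated 3′ untranslated region, 1880 (8.95%) held at least 1 match and 1.07% held 2 or more. Among the 2227 genes whose region is within 20% of the length of that of Hmga2 (3014 bases), 0.135% held as many as 4. By the same rule of length, 0.238% held as many as 4 for Lin28b and 0.356% for Igf2bp1, and 2.11% held as many as 2 for Lin28a. Single matches were more common: 7.95% of genes of like length held at least 1 for Hmga1, 12.04% for Igf2bp2 and 13.29% for Igf2bp3. At least 1 match was held by 23.9% of genes of like length for Lin28b and by 33.8% for Igf2bp1. Several of the oncofetal genes are textbook let-7 targets, and a match of letters is a description, not evidence of use.

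**Figure D1:**
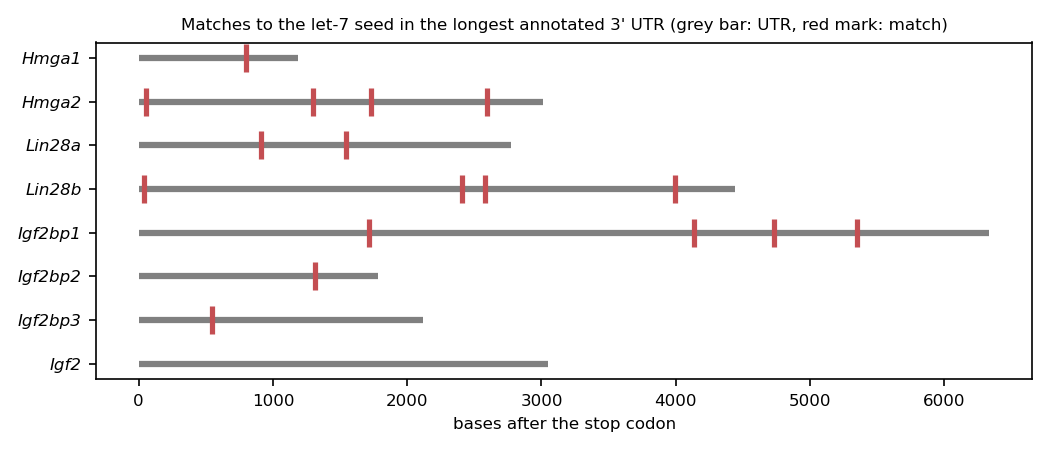
Position of each match to the let-7 seed (red mark) along the longest annotated 3′ untranslated region (grey bar) of each protein-coding member, in bases after the stop codon. Hmga2, Lin28b and Igf2bp1 hold 4 matches each and Igf2 holds 0.

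Total reads counted in genes were 33332516 and 36307030 in H7, 40507546 and 38728423 in UNKC and 12077320 and 8204225 in normal libraries. Ribosomal RNA and Lars2 took 27.8% and 24.6% of reads in H7, 21.2% and 20.1% in UNKC and 92.0% and 85.2% in normal libraries, so 1 read equals 0.0111 to 0.0145 CPM in the tumours and 0.463 and 0.477 CPM in normal pancreas. CPM are read counts scaled to the TMM-adjusted library size, and 3 read pairs over a group, the floor used for a gene without reads, equal 0.0408 CPM in H7, 0.0341 in UNKC and 1.41 in normal pancreas. Of 16306 genes tested with edgeR's quasi-likelihood model, 4819 rose and 3572 fell in H7 tumours relative to normal pancreas, against 3738 and 4395 with upper-quartile scaling and 12710 and 524 with scaling by total counts. For UNKC tumours against normal pancreas the counts were 4738 higher and 3150 lower, 3702 and 3977, and 13499 and 312. Acinar markers fit the labels: 14 of 14 were lower in both tumours, with a summed level of 34.2 and 42.5 CPM in H7, 14.7 and 4.76 in UNKC and 14523 and 14035 in normal libraries.

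Replicate 2 of both tumours stood apart from replicate 1 by skeletal muscle RNA. The 12 skeletal muscle markers summed to 13.8 and 1759.5 CPM in H7 replicates 1 and 2, to 6.34 and 6981 CPM in UNKC replicates 1 and 2, and to 89.3 and 63.9 CPM in normal libraries. In both tumours 12 of 12 markers were higher in replicate 2, and 7 markers of muscle stem cells and regenerating muscle summed to 0.0869 and 21.7 CPM in H7, 0.0664 and 9.31 in UNKC and 0 in normal libraries. Fibroblast markers summed to 977 and 1905 CPM in H7, 2612 and 4438 in UNKC and 392 and 593 in normal libraries, so their sum too was higher in replicate 2 of each group. Of the 12 fibroblast markers, 10 were higher in replicate 2 in H7, 12 in UNKC and 9 in normal libraries.

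Of the 9 genes, Hmga2, Hmga1 and Igf2bp2 were called lower and Igf2, Igf2bp1 and Igf2bp3 higher in H7 than in UNKC tumours. The calls of Igf2, Igf2bp1 and Igf2bp3 were each lost without H7 replicate 1 and without H7 replicate 2. Without any 1 tumour library, which leaves 1 library in its group, fewer genes of the whole table were called between the tumours. A call lost in such a fit, here and below, is thus not by itself a changed level. H19 was not called between the tumours, and Lin28a and Lin28b were not tested. The filter on low counts was passed by 7 genes, so counts over these genes describe the tested ones. Of those 7, 3 were called higher (adjusted p under 0.05 over all genes) and 0 lower in the H7 to normal comparison, where 29.6% of all tested genes were called higher and 21.9% lower, 51.5% together. In UNKC tumours against normal pancreas 4 were higher and 0 lower, beside 29.1% and 19.3% of all genes, 48.4% together. The counts of 0 lower were also 0 at an unadjusted p under 0.05 and in DESeq2. In H7 tumours against UNKC tumours 3 were higher and 3 lower, beside 7.06% and 11.1% of all genes, 18.2% together. The median log2 fold change over all tested genes was 0.34, 0.42 and −0.02 in these comparisons.

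**Figure D2:**
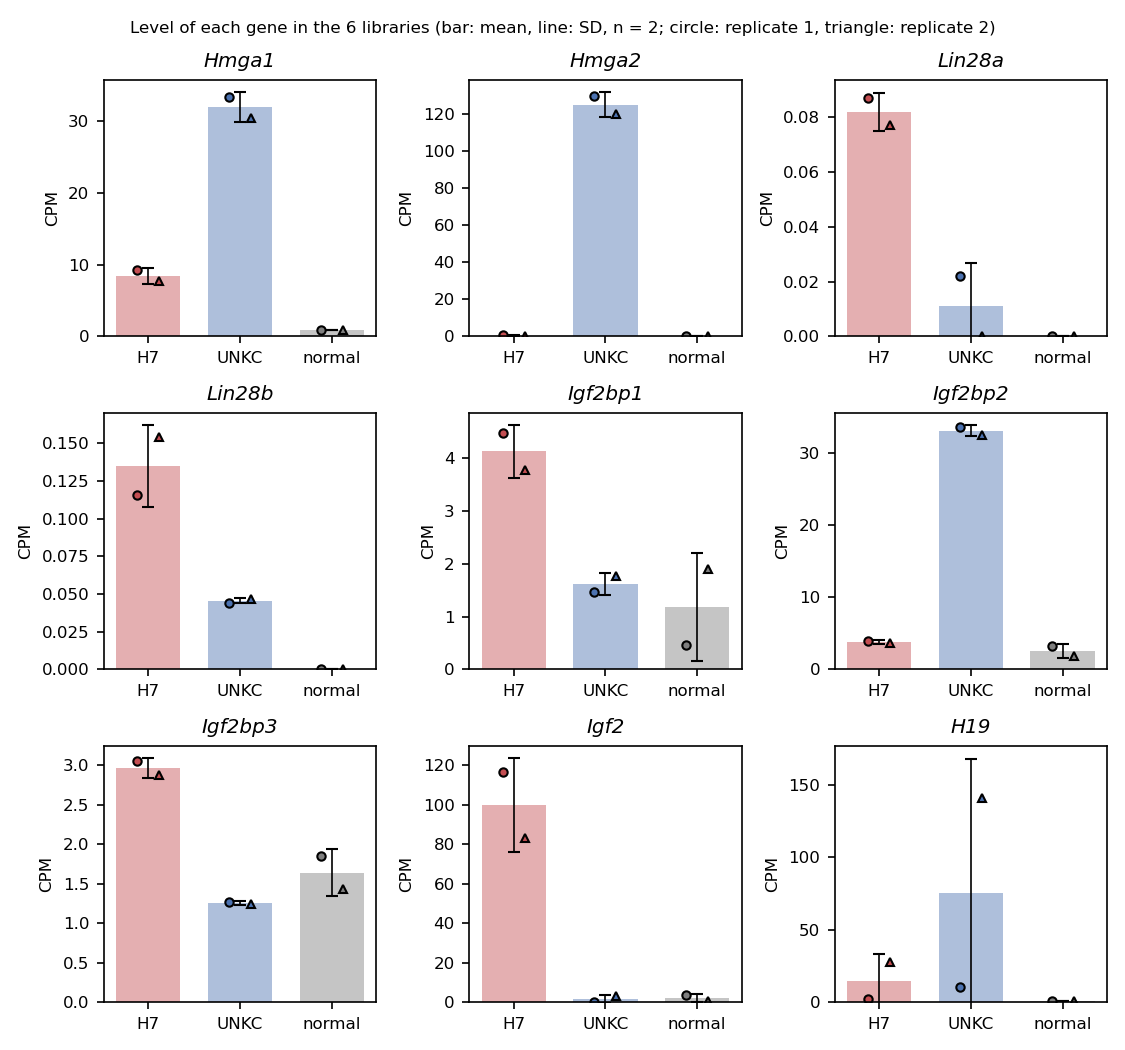
CPM of each gene in the 6 libraries (bar: mean of n = 2, line: SD, circle: replicate 1, triangle: replicate 2), with a linear axis of its own for each gene. Hmga2, Hmga1 and Igf2bp2 are highest in UNKC tumours, Igf2 in H7 tumours, and the H19 level differs within each tumour group.

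Hmga2 stood at 0.565 and 0.321 CPM in H7 libraries and at 129.7 and 120.2 CPM in UNKC libraries, and had no read in either normal library. These are 39 and 25 reads in H7, 11711 and 10264 in UNKC and 0 in normal libraries, and no value of one tumour comes near the other. In UNKC tumours Hmga2 was at least 88.7-fold higher than the floor of normal pancreas (edgeR, adjusted p = 0.000236). In H7 tumours against UNKC tumours its log2 fold change was −8.14 ± 0.34 (SE, edgeR, adjusted p = 0.000696), with −8.57 to −7.78 when each library was left out in turn. The H7 level lies under the normal floor of 1.41 CPM, so a difference between H7 tumours and normal pancreas was not detectable at this depth (edgeR, adjusted p = 0.0715). That p was 0.0455 without H7 replicate 1 and 0.0319 without H7 replicate 2. The authors' deposited table gives a log2 fold change of 9.69 for Hmga2 in UNKC tumours against normal pancreas (adjusted p = 1.01e-09) and of 0.30 in H7 tumours, with no adjusted p.

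Noncoding genes lie in the span of Hmga2 (chr10:120361268-120476469, minus strand, mm10), and since the strand used in counting is not stated, their reads cannot be told apart from those of Hmga2. The lncRNA 9230105E05Rik had 0 and 0.0385 CPM in H7, 1.38 and 2.10 in UNKC and 0 in normal libraries, and the microRNA gene Mir763 had 0 in H7, 0.122 and 0.316 in UNKC and 0 in normal libraries. The lncRNA 1700006J14Rik had 0 in H7, 1.16 and 1.35 in UNKC and 0.925 and 0 in normal libraries. All 3 were far below Hmga2 in UNKC libraries. The pseudogene Hmga2-ps1, which may share reads with Hmga2, had 1.30 and 0.821 CPM in H7, 6.93 and 5.77 in UNKC and 2.78 and 4.77 in normal libraries.

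Hmga1, the other HMGA gene (chr17:27556574-27563672, mm10), had 9.25 and 7.67 CPM in H7, 33.4 and 30.4 in UNKC and 0.925 and 0.954 in normal libraries. The 3 groups did not overlap, with UNKC highest and normal pancreas lowest. Its log2 fold change was 3.17 ± 0.29 (SE) in H7 tumours against normal pancreas (edgeR, adjusted p = 0.000331) and 5.08 ± 0.27 in UNKC tumours (adjusted p = 0.000138). Normal pancreas rests on 4 reads, which put the ratio at 8.96 (95% counting interval 2.47 to 74.1) for H7 tumours and at 34.0 (9.40 to 280.8) for UNKC tumours. H7 tumours were lower than UNKC tumours by a log2 fold change of −1.91 ± 0.16 (edgeR, adjusted p = 0.00125). Hmga1b, an annotated copy of Hmga1, had 784 and 724 reads in H7, 3548 and 3056 in UNKC and 4 and 8 in normal libraries, beside 639 and 598, 3014 and 2599, and 2 and 2 reads of Hmga1. How the authors' counting divided reads shared by these copies is not stated, so the level of Hmga1 itself is uncertain.

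LIN28 genes were close to undetected in every library. Lin28b, which blocks let-7 processing, had 8 and 12 reads in H7, 4 and 4 in UNKC and 0 in normal libraries, or 0.116 and 0.154 CPM in H7 and 0.0443 and 0.0468 in UNKC libraries. Lin28a, which recruits uridylating enzymes to let-7 precursors, had 6 and 6 reads in H7, 2 and 0 in UNKC and 0 in normal libraries. Both were counted more often in H7 libraries, at levels too low for the filter, and no test was made. Lin28a in H7 against UNKC tumours gave a ratio of 7.17 with a 95% counting interval of 0.870 to 329.9, which includes equal levels. The normal floor of 1.41 CPM lies above all tumour values of both genes.

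Igf2bp2, the most widely expressed of the 3 IGF2 mRNA binding proteins in adult tissue (chr16:22059009-22163299, mm10), had 3.98 and 3.59 CPM in H7, 33.6 and 32.5 in UNKC and 3.24 and 1.91 in normal libraries. UNKC libraries stood apart, while H7 lay just above normal pancreas in these TMM-scaled values. With scaling by total counts the log2 fold change in H7 tumours against normal pancreas was 3.88 (edgeR, adjusted p = 2.56e-05). In UNKC tumours its log2 fold change was 3.68 ± 0.26 against normal pancreas (SE, edgeR, adjusted p = 0.000243), and in H7 tumours it was 0.55 ± 0.28 (adjusted p = 0.153). That p was 0.0146, with a log2 fold change of 1.01, without normal replicate 1. In H7 tumours against UNKC tumours the log2 fold change was −3.13 ± 0.20 (edgeR, adjusted p = 0.000883), with −3.18 to −3.05 when libraries were left out in turn. Replicates 1 and 2, which differ in muscle RNA, thus gave like values in both tumours.

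Igf2bp1, a fetal paralog with a long 3′ untranslated region of 6337 bases (chr11:95957163-96005944), went the other way. It had 4.47 and 3.77 CPM in H7, 1.47 and 1.77 in UNKC and 0.463 and 1.91 in normal libraries, so H7 libraries lay above all others, and UNKC and normal pancreas overlapped. In H7 tumours against UNKC tumours the log2 fold change was 1.35 ± 0.34 (SE, edgeR, adjusted p = 0.0424). This call was lost when any 1 tumour library was left out: the adjusted p was 0.268 without H7 replicate 1, 0.140 without H7 replicate 2, 0.221 without UNKC replicate 1 and 0.0965 without UNKC replicate 2. Against normal pancreas, which holds 5 reads, the H7 ratio was 3.49 (95% counting interval 1.20 to 36.3, edgeR, adjusted p = 0.0434). That call was lost without any 1 tumour library, at adjusted p of 0.119, 0.0870, 0.0712 and 0.0699 without H7 replicates 1 and 2 and UNKC replicates 1 and 2. Without normal replicate 1 its log2 fold change was 1.14 (adjusted p = 0.0838), and without normal replicate 2 it was 3.19 (0.0109). In UNKC tumours against normal pancreas the log2 fold change was 0.46 ± 0.65 (adjusted p = 0.582), turning to −0.21 (0.717) without normal replicate 1 and standing at 1.83 (0.0783) without normal replicate 2.

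Igf2bp3, a paralog used as a marker of pancreatic carcinoma (chr6:49085218-49215469), had 3.05 and 2.87 CPM in H7, 1.27 and 1.24 in UNKC and 1.85 and 1.43 in normal libraries. H7 was highest and UNKC lowest, without overlap. Its log2 fold change was 1.24 ± 0.27 in H7 tumours against UNKC tumours (SE, edgeR, adjusted p = 0.0278), and leaving out H7 replicate 1 or 2 or UNKC replicate 1 or 2 gave adjusted p of 0.185, 0.120, 0.153 and 0.115. Against normal pancreas, where it had 7 reads, the log2 fold change was 0.85 ± 0.44 in H7 tumours (adjusted p = 0.157) and −0.39 ± 0.47 in UNKC tumours (0.530), a direction that turned to 2.99 with scaling by total counts. Malsu1, a protein-coding gene overlapping it, had 3.85 to 5.63 CPM in tumour libraries and 0.925 and 6.20 in normal libraries, so reads of the 2 genes cannot be told apart where they overlap.

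**Figure D3:**
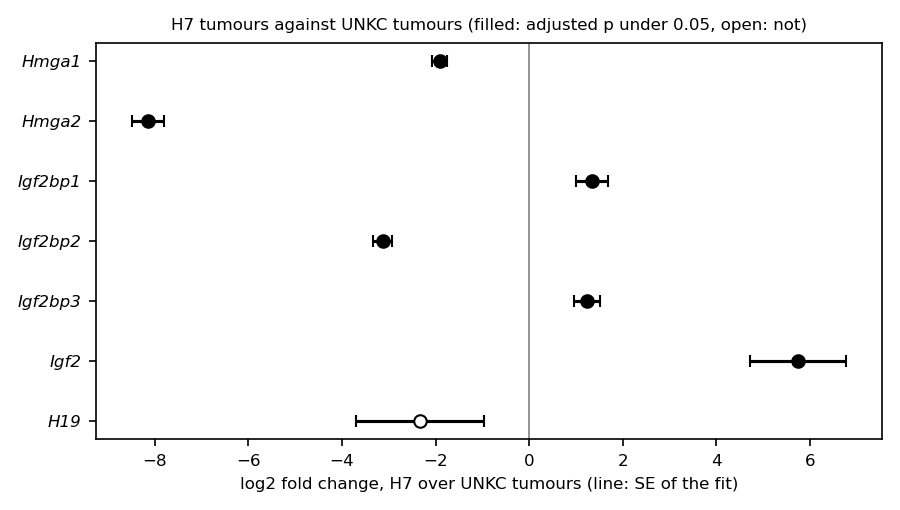
Log2 fold change of the 7 tested genes in H7 tumours over UNKC tumours (horizontal axis; line: SE of the edgeR fit; filled: adjusted p under 0.05). Hmga2, Igf2bp2 and Hmga1 lie left of 0, Igf2, Igf2bp1 and Igf2bp3 right of 0, and H19 (open) at −2.33 with an SE of 1.37.

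The promoters of Hmga2 and Igf2bp2, the genes with the largest falls in H7 tumours against UNKC tumours, are shown because these genes moved together and their promoters differ in make-up. Each is the 250 bases before the annotated start (RefSeq, GRCm38.p6), with the GC-box core GGGCGG, or CCGCCC on the other strand, in capitals.
Hmga2, chr10:120476470-120476719, minus strand: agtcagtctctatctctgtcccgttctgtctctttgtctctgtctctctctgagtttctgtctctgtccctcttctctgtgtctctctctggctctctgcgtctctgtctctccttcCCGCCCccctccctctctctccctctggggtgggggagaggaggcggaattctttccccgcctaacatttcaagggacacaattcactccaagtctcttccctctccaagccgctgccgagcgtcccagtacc
Igf2bp2, chr16:22163300-22163549, minus strand: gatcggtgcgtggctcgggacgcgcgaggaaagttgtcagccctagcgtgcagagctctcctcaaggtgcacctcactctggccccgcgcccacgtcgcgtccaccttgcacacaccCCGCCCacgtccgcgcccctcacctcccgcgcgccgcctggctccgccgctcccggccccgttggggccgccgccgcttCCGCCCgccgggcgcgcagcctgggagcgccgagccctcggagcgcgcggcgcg

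The Hmga2 sequence is rich in pyrimidines: 70.8% of its bases are C or T, a larger share than in 99.6% of 32851 mouse promoters of the same length. This was not particular to Hmga2. The share was 68.0% for Igf2bp3 (above 99.3% of promoters) and 69.6% at the Igf2 start with the largest share (above 99.5%), genes higher in H7 than in UNKC tumours. It was 35.6% to 61.2% at the other Igf2 starts, 50.8% and 51.6% for Hmga1, 58.0% for Igf2bp2, 37.2% for Lin28a and 44.8% for Lin28b. The Hmga2 sequence has 8 CpG dinucleotides and 1 GC-box core. The Igf2bp2 sequence has 40 CpG, more than 98.7% of promoters, and 2 cores. The median promoter has 6 CpG, and 32.7% hold a core on either strand.

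Igf2, the ligand (chr7:142650768-142666816, mm10), was highest in H7 tumours. It had 116.7 and 83.2 CPM in H7, 0.376 and 3.36 in UNKC and 3.70 and 0.954 in normal libraries. Both H7 libraries lay far above the other 4, and UNKC and normal pancreas overlapped. The log2 fold change was 5.41 ± 1.21 in H7 tumours against normal pancreas (SE, edgeR, adjusted p = 0.0116) and 5.74 ± 1.03 in H7 tumours against UNKC tumours (adjusted p = 0.0151). Against normal pancreas, which holds 10 reads, the adjusted p was 0.0503 without normal replicate 1 and 0.0721 without normal replicate 2. Against UNKC tumours it was 0.104 without H7 replicate 1 and 0.0640 without H7 replicate 2, and the log2 fold change was 8.04 without UNKC replicate 2 and 4.90 without UNKC replicate 1. In UNKC tumours against normal pancreas it was −0.33 ± 1.37 (adjusted p = 0.856), turning to 3.09 with scaling by total counts, to 0.54 without UNKC replicate 1 and to 0.99 without normal replicate 1. That value was −2.61 (adjusted p = 0.0312) without UNKC replicate 2, which had the muscle RNA and 287 reads of Igf2 against 34 in UNKC replicate 1. Replicate 2, which held the muscle RNA, had 0.713 times the Igf2 level of replicate 1 in H7 tumours and 8.92 times in UNKC tumours, and the part of muscle in the Igf2 level was not tested. The antisense gene Igf2os had 0.637 and 0.603 CPM in H7 libraries and 0 in UNKC and normal libraries, and without a stated strand its reads cannot be told apart from those of Igf2.

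The IGF signalling list holds receptors, adaptors and the binding proteins, which hold IGFs outside the cell. Of its 15 tested genes, 5 rose and 5 fell in H7 tumours relative to normal pancreas (median log2 fold change −0.90, beside 0.34 over all genes), 6 were higher and 3 lower in UNKC tumours (0.30, beside 0.42), and 2 were higher and 5 lower in H7 than in UNKC tumours (−0.22, beside −0.02), where 7.06% and 11.1% of all genes were called. Relative to normal pancreas, 29.6% of all genes rose and 21.9% fell in H7 tumours, and 29.1% and 19.3% in UNKC tumours. With scaling by total counts the falls of listed genes against normal pancreas were lost, and 10 and 13 of them were higher in H7 and UNKC tumours. Igfbp4 had 10.8 and 17.7 CPM in H7, 714.7 and 725.3 in UNKC and 28.7 and 39.1 in normal libraries, a log2 fold change of −5.66 ± 0.32 in H7 tumours against UNKC tumours (SE, edgeR, adjusted p = 0.000679). Igfbp7 had 17.0 and 26.9 CPM in H7, 268.3 and 256.1 in UNKC and 17.1 and 33.4 in normal libraries (−3.58 ± 0.36 in H7 against UNKC tumours, adjusted p = 0.00250). Both calls held when any 1 library was left out. Igfbp5 was lower in H7 tumours than in UNKC tumours by −3.04 ± 0.36 on the log2 scale (adjusted p = 0.00403), a call lost without H7 replicate 1 (0.0570).

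Irs1, the adaptor of the IGF1 and insulin receptors, had 142.2 and 162.3 CPM in H7, 44.5 and 46.4 in UNKC and 23.1 and 20.0 in normal libraries, without overlap. Its log2 fold change in H7 tumours against UNKC tumours was 1.74 ± 0.14 (SE, edgeR, adjusted p = 0.00139), and the call held when any 1 library was left out. Igf1r, which transmits the IGF2 signal, had 131.1 and 99.2 CPM in H7, 115.3 and 111.4 in UNKC and 66.2 and 66.8 in normal libraries, and Igf2r, which clears IGF2 from the surface, had 102.2 and 113.2, 72.7 and 88.3, and 42.1 and 29.1 CPM in H7, UNKC and normal libraries. Both receptors were called higher in each tumour than in normal pancreas and neither was called between the tumours. With upper-quartile factors 4 rather than 5 listed genes were higher in H7 tumours than in normal pancreas. Irs1, Igfbp3 and Igfbp6 were among those 4, so at most 1 of the receptors kept its call there. In UNKC tumours the listed genes called higher went from 6 to 5. Igf1r and Igf2r are named here after their values were seen, and Igf1r is also among the other let-7 targets below. Igfbp6, which prefers IGF2, was higher in H7 tumours than in UNKC tumours by 2.91 ± 0.53 on the log2 scale (adjusted p = 0.0162), a call lost without H7 replicate 1 or 2 or UNKC replicate 1 (adjusted p up to 0.0957). Of 12 fibroblast markers, 3 were higher and 2 lower in H7 than in UNKC tumours, and their summed level was 977 and 1905 CPM in H7 against 2612 and 4438 in UNKC libraries. Within that list the collagen gene Col1a2 had 52.1 and 256.5 CPM in H7 and 533.8 and 1013 in UNKC libraries, while the receptor gene Pdgfrb had 204.0 and 161.2 in H7 and 29.8 and 38.7 in UNKC libraries. Of 10 endothelial markers 2 were lower in H7 tumours, with a summed level of 75.7 and 104.3 CPM in H7 against 187.9 and 225.4 in UNKC libraries. Their part in the levels of the binding proteins was not tested.

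**Figure D4:**
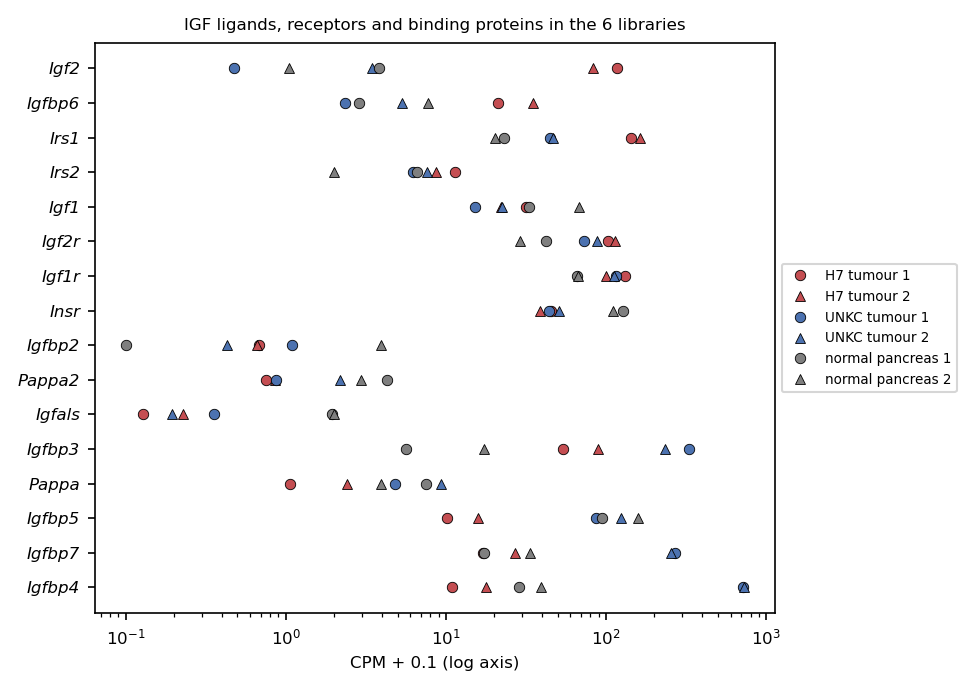
CPM + 0.1 (log axis) of Igf2 and the tested IGF signalling genes, 1 point per library (circle: replicate 1, triangle: replicate 2), ordered from genes higher in H7 tumours (top) to genes higher in UNKC tumours (bottom). Igf2 and Igfbp6 are highest in H7 libraries, and Igfbp3, Igfbp7 and Igfbp4 in UNKC libraries.

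H19 (chr7:142575530-142578146, mm10) had very unequal levels within each tumour group. It had 2.04 CPM in H7 replicate 1 and 27.9 in H7 replicate 2, 10.5 in UNKC replicate 1 and 140.7 in UNKC replicate 2, and 0.925 and 0.954 CPM in normal libraries. Replicate 2 was 13.7 times replicate 1 in H7 tumours and 13.4 times in UNKC tumours, a larger gap than for 99.8% and 99.5% of all tested genes. The same libraries held the muscle RNA, whose summed markers were 127.1 and 1100.3 times higher in replicate 2 of H7 and UNKC tumours. As background, H19 is abundant in fetal and regenerating muscle. The part of muscle in the H19 level was not tested.

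The edgeR log2 fold change of H19 was 6.33 ± 2.16 (SE) in UNKC tumours against normal pancreas (adjusted p = 0.0494), where 4 normal reads give a ratio of 78.5 with a 95% counting interval of 21.7 to 648.5. Without UNKC replicate 2 it was 3.50 (adjusted p = 0.214), and the adjusted p was 0.207 without normal replicate 1 and 0.203 without normal replicate 2. In H7 tumours against normal pancreas it was 3.99 ± 2.28 (adjusted p = 0.188), and 1.15 (0.714) without H7 replicate 2. In H7 tumours against UNKC tumours it was −2.33 ± 1.37 (adjusted p = 0.306), with −5.20 without H7 replicate 2. Without UNKC replicate 2 the direction turned, at 0.51, in a fit that keeps the muscle RNA of H7 replicate 2 but not that of UNKC replicate 2. Without replicate 2 of both tumours it was −2.36. H19 was lower in H7 replicate 1 than in UNKC replicate 1 (2.04 against 10.5 CPM) and in H7 replicate 2 than in UNKC replicate 2 (27.9 against 140.7 CPM). The labels do not say that equal numbers pair samples, and H7 replicate 2 lay above UNKC replicate 1. The replicate 2 libraries also differed in muscle markers, at 1759.5 CPM in H7 and 6981 CPM in UNKC. Mir675, the microRNA gene inside H19, was listed at 0 reads in all 6 libraries, a gene count that does not measure the mature microRNAs.

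**Figure D5:**
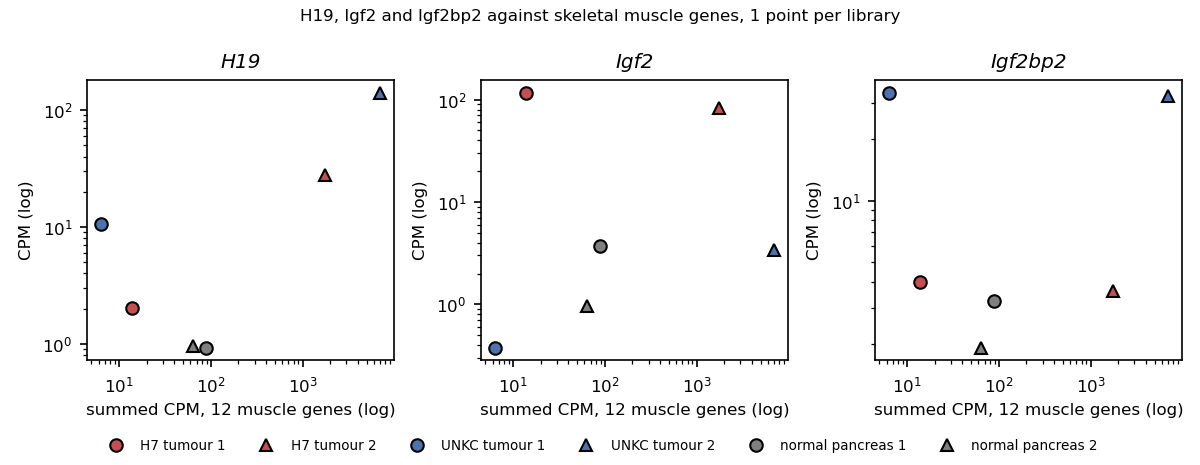
CPM of H19, Igf2 and Igf2bp2 against the summed CPM of 12 skeletal muscle markers (both log axes), 1 point per library (circle: replicate 1, triangle: replicate 2). H19 is higher in replicate 2 of both tumours, Igf2 in replicate 2 of UNKC alone, and Igf2bp2 keeps its level in each tumour.

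Per kilobase of gene length, Igf2 led in H7 tumours, at a mean of 23.6 CPM per kilobase, followed by H19 (5.73), Hmga1 (4.14), Igf2bp2 (0.971), Igf2bp3 (0.682), Igf2bp1 (0.492), Hmga2 (0.106) and Lin28b (0.0250). The H7 replicates of H19 (0.781 and 10.7) spanned the ranges of Hmga1 and Igf2bp2, and no other ranges overlapped. In UNKC tumours Hmga2 came first by mean at 29.9 CPM per kilobase, followed by H19 (28.9), Hmga1 (15.6) and Igf2bp2 (8.48). Then came Igf2 (0.441), Igf2bp3 (0.289), Igf2bp1 (0.193) and Lin28b (0.00843). The UNKC replicates of H19 (4.02 and 53.8) spanned the ranges of Hmga2, Hmga1 and Igf2bp2, and those of Igf2 spanned Igf2bp3 and Igf2bp1. In replicate 1 of both tumours H19 lay under Hmga1 and Igf2bp2, so its place by mean rests on replicate 2. Normal pancreas held all of them at 0.660 CPM per kilobase or less, with Igf2bp2 first. Among 15569 genes with a length, Hmga2 lay above 95.6% in UNKC tumours and above 11.5% in H7 tumours, and Igf2 above 94.1% in H7 tumours and above 20.8% in UNKC tumours.

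The genes whose pattern over the 6 libraries lay nearest (smallest distance of centred log2 CPM among 11035 genes) were Kcnn4, Plat and Ecm1 for Hmga1. Kcnn4, a calcium-activated potassium channel, had 15.7 and 13.5 CPM in H7, 66.6 and 57.4 in UNKC and 1.85 and 1.91 in normal libraries, at a distance of 0.215. For Hmga2 they were Add2, 2310057J18Rik and Hhip. Hhip, which binds and holds back Hedgehog ligands, had 0.0579 and 0.0770 CPM in H7, 47.7 and 43.2 in UNKC and 0 in normal libraries, at a distance of 2.32. For Igf2 they were Epha6, Gdpd2 and Aqp5, and Aqp5, a water channel, had 58.1 and 52.8 CPM in H7, 1.02 and 0.937 in UNKC and 0.925 and 0.954 in normal libraries (distance 2.76). For Igf2bp2 they were Gipc2, Akr1c12 and Golm1, for Igf2bp1 Klhl6, Fmod and Tmem79, and for Igf2bp3 Pacs2, Prmt9 and Swap70. For H19 they were Mylk2, Tnnt1 and Cilp, of which Mylk2, the skeletal muscle myosin light chain kinase, and Tnnt1, the slow muscle troponin T, are muscle genes.

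Of 11 tested genes listed as let-7 processing and decay partners, Xpo5 alone was called between the tumours (median log2 fold change 0.08 in H7 over UNKC tumours). Against normal pancreas 1 rose and 5 fell in H7 tumours (median 0.36, beside 0.34 over all genes). In UNKC tumours 1 rose and 4 fell (−0.31, beside 0.42), while scaling by total counts gave 10 and 11 rises in H7 and UNKC tumours. Of all genes, 29.6% rose and 21.9% fell in H7 tumours, 29.1% and 19.3% in UNKC tumours, and 7.06% and 11.1% were higher and lower in H7 than in UNKC tumours. Dicer1, which cuts the precursor hairpin, had 49.8 and 48.8 CPM in H7, 36.5 and 39.9 in UNKC and 85.1 and 96.4 in normal libraries, and was lower by −0.88 ± 0.13 in H7 tumours (SE, edgeR, adjusted p = 0.00255) and by −1.25 ± 0.13 in UNKC tumours (0.000807), with both directions turned under scaling by total counts. Dis3l2, the exonuclease that degrades uridylated let-7 precursors, was lower by −1.16 ± 0.19 (0.00330) and −1.38 ± 0.19 (0.00187) in H7 and UNKC tumours, and these directions turned likewise. Xpo5, which exports precursors from the nucleus, was the gene higher in H7 tumours than in UNKC tumours (0.67 ± 0.12, adjusted p = 0.0168), a call lost when any 1 tumour library was left out (adjusted p up to 0.128). The 13 precursor genes summed to at most 0.608 CPM in a library, were not tested, and do not measure mature let-7.

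Of 19 other let-7 targets, 7 rose and 4 fell relative to normal pancreas in H7 tumours and likewise 7 and 4 in UNKC tumours (17 and 18 rose with scaling by total counts), beside 29.6% and 21.9% of all genes in H7 and 29.1% and 19.3% in UNKC tumours. Of the 19, 1 was higher and 3 lower in H7 than in UNKC tumours (median log2 fold change −0.22), beside 7.06% and 11.1% of all genes. Mycn, a relative of Myc, had 0.290 and 0.282 CPM in H7, 7.37 and 5.62 in UNKC and 0 and 4.77 in normal libraries, with a log2 fold change of −4.50 ± 0.68 in H7 tumours against UNKC tumours (SE, edgeR, adjusted p = 0.00882) that was not called without H7 replicate 1 or 2 (adjusted p up to 0.138). Tgfbr1, a TGF-beta receptor, was the higher gene, at 0.68 ± 0.11 (0.0124). That call was lost when any 1 tumour library was left out (adjusted p up to 0.118). Myc itself was lower in both tumours than in normal pancreas, by −1.65 ± 0.14 (0.000389) in H7 and −2.14 ± 0.14 (0.000209) in UNKC tumours, directions that turned under scaling by total counts.

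Among 19 imprinted growth genes, the class of Igf2 and H19, 2 rose and 11 fell in H7 tumours relative to normal pancreas (median log2 fold change −3.10, beside 0.34 over all genes), 1 rose and 6 fell in UNKC tumours (−1.17, beside 0.42), and 2 were higher and 5 lower in H7 than in UNKC tumours (−1.81). Of all genes, 29.6% rose and 21.9% fell in H7 tumours, 29.1% and 19.3% in UNKC tumours, and 7.06% and 11.1% were higher and lower in H7 than in UNKC tumours. With scaling by total counts 3 rose and 3 fell in H7 tumours and 11 rose and 1 fell in UNKC tumours. Peg3, a paternally expressed zinc finger gene, had 0.492 and 3.08 CPM in H7, 3.50 and 5.29 in UNKC and 159.2 and 97.3 in normal libraries, a log2 fold change of −6.16 ± 0.91 (SE, edgeR, adjusted p = 0.00243) in H7 tumours and −4.87 ± 0.85 (0.00486) in UNKC tumours. Meg3, a maternally expressed noncoding RNA, had 0.738 and 2.67 CPM in H7, 5.02 and 9.93 in UNKC and 92.5 and 64.9 in normal libraries (−5.52 ± 0.72 in H7 against normal libraries, adjusted p = 0.00156). The 12 islet markers, 11 of them tested, summed to 11.3 and 67.6 CPM in H7, 50.9 and 16.4 in UNKC and 674.7 and 308.6 in normal libraries, with 9 lower in H7 and 8 lower in UNKC tumours than in normal pancreas, and their part in these falls was not tested. Kcnq1ot1, a noncoding RNA of the imprinted domain next to H19, was lower in H7 tumours than in UNKC tumours by −2.44 ± 0.24 (adjusted p = 0.00240), and Gatm, an enzyme of creatine synthesis, was higher by 1.72 ± 0.14 (0.00158). Both calls between the tumours held when any 1 library was left out. In UNKC tumours against normal pancreas the log2 fold change of Gatm was −4.93 (edgeR, adjusted p = 0.000101). Of 14 acinar markers, 6 were higher and 0 lower in H7 than in UNKC tumours (median log2 fold change 1.66). Their part in the Gatm level was not tested. Dlk1, another fetal imprinted gene, had 0.145 and 0.154 CPM in H7, 12.1 and 1.25 in UNKC and 0 in normal libraries (−5.46 ± 1.29 in H7 against UNKC tumours, adjusted p = 0.0473), a call lost without H7 replicate 1 or 2 or UNKC replicate 1 (adjusted p up to 0.294).

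Beside every list of this paragraph, 29.6% of all genes rose and 21.9% fell in H7 tumours relative to normal pancreas. In UNKC tumours the shares were 29.1% and 19.3%, and in H7 against UNKC tumours 7.06% were higher and 11.1% lower. Of 9 other high mobility group genes, 5 rose and 1 fell in H7 tumours relative to normal pancreas and 6 and 1 in UNKC tumours (9 rose in each with scaling by total counts). Between the tumours Hmgn3 was higher and Hmgb3 lower in H7, calls lost without any 1 tumour library (adjusted p up to 0.232). Hmgn1, a nucleosome binding protein, had 65.6 and 75.2 CPM in H7, 72.8 and 63.2 in UNKC and 6.48 and 8.59 in normal libraries. Of 15 m6A writers, erasers and readers, the class of mark that IGF2BP proteins also bind, 5 rose and 4 fell in H7 tumours and 4 and 5 in UNKC tumours relative to normal pancreas, beside 29.6% and 21.9% of all genes in H7 and 29.1% and 19.3% in UNKC tumours, against 15 rises in each with scaling by total counts. Fto and Hnrnpa2b1 were called between the tumours, both higher in H7, and both calls were lost when any 1 tumour library was left out (adjusted p up to 0.238). Of 7 further oncofetal genes, 2 rose and 1 fell in H7 tumours relative to normal pancreas and 4 rose in UNKC tumours (6 rose in each with scaling by total counts). Between the tumours, Afp was called higher and Sox11 and Prom1 lower in H7. Of these, only Prom1 reached the mean of 5 CPM set for naming genes, so the calls of Afp and Sox11 rest on low levels. Tpbg, the oncofetal antigen 5T4, had no read in normal pancreas and exceeded its floor at least 13.8-fold in H7 tumours (edgeR, adjusted p = 0.000228) and at least 19.6-fold in UNKC tumours (0.000197). Prom1, a surface protein of progenitor cells, had 15.8 and 6.80 CPM in H7, 113.2 and 97.1 in UNKC and 31.0 and 24.3 in normal libraries (−3.22 ± 0.41 in H7 against UNKC tumours, adjusted p = 0.00508). Of 20 cell cycle genes, 19 rose in H7 and 18 in UNKC tumours relative to normal pancreas, and their median log2 fold change in H7 over UNKC tumours was 0.24.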

How the data were processed

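RNA from 2 H7 tumours, 2 UNKC tumours and 2 normal pancreases was sequenced. Per the submitters' processing notes, reads were handled with STAR, featureCounts and DESeq2 1.18.1 on mm10; the strand of counting and the treatment of reads with several matches are not given in the sources used here. The authors deposited whole-number read counts per gene ID and sample (27179 genes). The deposited comparison tables, for H7 (15306 genes) and UNKC tumours (15940 genes) against normal pancreas, hold the authors' fragment counts and their TPM, and the authors' log2 fold changes (tumour over normal), p-values and adjusted p-values. Read counts were a median of 2.00 times the fragment counts, so both mates were counted. Gene symbols were read from the comparison tables for 16286 IDs and from RefSeq for 9355; 1538 had none.

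Counts were scaled with TMM factors (2.07 to 2.23 in tumours, 0.179 and 0.256 in normal pancreas) and tested with edgeR 4.0.16 (quasi-likelihood, legacy = FALSE, filterByExpr, all 6 libraries, two-sided, Benjamini-Hochberg, threshold 0.05) in R 4.3.3. Every adjusted p is from this model unless another source is named. Folds over a group at 0 reads are bounds against 3 read pairs over the group; with 1 to 3 pairs it has a 95% exact binomial interval on pairs, and both cover counting error only. Scripts were tested on simulated data. The 9 genes, the lists and the 17 alternatives were chosen with earlier results of these data known. The main model did not use replicate numbers to pair samples. The rule for naming genes was all 9 members, up to 3 rises and 3 falls per list and comparison among called genes of at least 5 CPM, and the 3 nearest patterns per tested member; not all are printed, and some items are not reported here. Genes in counts of 5 or fewer, Igf1r and Igf2r were named after their values were seen. Tools were Python 3.11.15, pandas 2.3.3, SciPy 1.17.1, matplotlib 3.10.9 and DESeq2 1.42.0 as an alternative.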

Additional observations from a re-analysis of the deposited data

Results flagged for a closer look

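Each of the following genes is listed because its change differed between the 2 tumour types by the direct edgeR test of H7 against UNKC tumours. The log2 fold change in H7 tumours over UNKC tumours was −8.14 for Hmga2, −3.13 for Igf2bp2 and −1.91 for Hmga1. It was 5.74 for Igf2, 1.35 for Igf2bp1 and 1.24 for Igf2bp3. The calls of Hmga2, Igf2bp2 and Hmga1 held with each of the 6 libraries left out in turn, and those of Igf2bp1 and Igf2bp3 were lost with any 1 tumour library left out. The call of Igf2 was lost without H7 replicate 1 (adjusted p = 0.104) and without H7 replicate 2 (0.0640). These genes were chosen with earlier results of the same libraries known, so the differences are descriptions.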

How the results depend on the processing

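Of the log2 fold changes of single genes under the 17 alternatives, 286 kept their direction and side of the threshold, 46 lost their call, 11 gained one and 6 turned. When scaled by total counts only, Igf2bp3 and Igf2 in UNKC tumours against normal pancreas turned to 2.99 and 3.09. With 1 library left out, in the same comparison, Igf2 ranged from −2.61 to 0.99 (turning to 0.54 without UNKC replicate 1 and 0.99 without normal replicate 1) and Igf2bp1 from −0.21 (without normal replicate 1) to 1.83. H19 in H7 against UNKC tumours ranged from −5.20 to 0.51, turning without UNKC replicate 2. None of these 4 turned values was called. With that scaling, which shifted the median of all genes to 3.61 (H7) and 3.77 (UNKC) against normal pancreas, 7 genes were called higher in each tumour type than in normal pancreas. Without replicate 2 of both tumour types 0 members were called in any comparison and 0 genes of the whole table, since 1 residual degree of freedom was left. With each library left out in turn, 0 to 3 members were called higher in H7 tumours than in UNKC tumours (0 without H7 replicate 1 or 2, 1 without UNKC replicate 1 or 2), and 0 to 1 lower in UNKC tumours than in normal pancreas (Igf2 without UNKC replicate 2). A group of 1 library was assumed to vary like the others. Over all genes, 1152 were higher and 1808 lower in H7 than in UNKC tumours, against 2717 and 2692 with DESeq2, 2318 and 2497 with only the 4 libraries compared, 648 and 1488 with total counts, and 184 to 2165 higher and 378 to 2456 lower with 1 library left out (fewest without H7 replicate 1). In UNKC tumours against normal pancreas 3150 genes were lower, and 2183 without UNKC replicate 1.

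The Igf2bp1 call in H7 tumours against normal pancreas was also lost with relative log expression factors (adjusted p = 0.0573), upper-quartile factors (0.0900), only the 4 libraries compared (0.0728), the authors' fragment counts (0.132) and halved read counts (0.0961), and the H19 call in UNKC tumours with relative log expression factors (0.0561) and upper-quartile factors (0.0612), no filter (0.0576), halved read counts (0.0537) and ribosomal RNA and Lars2 left out (0.0514). DESeq2 kept the calls of all tested members in all 3 comparisons. Replicate numbers gave correlated deviations in H7 and UNKC (0.531), but not in H7 and normal (−0.0139) or UNKC and normal pancreas (−0.0256). Replicate 2 of both tumours also shared the muscle RNA. The labels do not say whether replicate numbers pair samples, and the main model has no replicate term. With the replicate block, Igf2bp1 in H7 tumours against normal pancreas had 1.81 (0.0697) and was not called, and H19 was called at 3.85 (0.00868) in H7 tumours against normal pancreas and −2.34 (0.00862) against UNKC tumours; 4 members were then lower in H7 tumours than in UNKC tumours. Depth limits Hmga2 in H7 tumours and the LIN28 genes, which lie under the floor of normal pancreas.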
